A study of Mus musculus with 12 samples.

Results

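The genes described here are those of epithelial cell junctions, a list of 37 symbols that covers tight junctions, adherens junctions, desmosomes, gap junctions and the polarity proteins found beside them. A member was any row of the count table that carried a listed symbol, and 36 of the 37 were found among the 16411 genes of the table. The exception, Cgn, the gene of the tight junction protein cingulin, was not analysed for expression, and only its promoter window is used below. All 36 passed the filter on low counts.

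RNA was sequenced from the whole mammary tissue of MMTV-Neu-NDL-YD5 transgenic females (strain FVB). In this line the MMTV promoter drives an activated Neu, the rodent HER2 receptor, in mammary epithelium, with the YD tyrosine site restored so that the receptor couples to SHC and GRB2. Tumors (n = 6) were compared with benign tissue (n = 6), and every mouse of both groups carried the transgene. Benign samples were taken where no tumor could be seen, and for RNA they came from other mice than the tumors did. The ages of the individual mice are not given in the sources used here.

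Epithelial cells are held in a sheet by a stack of junctions at their lateral walls. Nearest the lumen, tight junctions built of claudins and occludin seal the space between cells, and below them adherens junctions join E-cadherin to the actin cytoskeleton through catenins, while desmosomes join desmogleins and desmocollins to keratin filaments. Gap junctions, made of connexins, let small molecules pass between neighbours, and in the mammary gland luminal cells and the myoepithelial cells around them use partly different cadherins and connexins.

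Benign libraries held 5240853 to 8170687 counts and tumor libraries 6111393 to 8588567, and 3 counts corresponded to 0.329 to 0.556 CPM, the unit of level used here, which sets a gene's counts in proportion to its scaled library. Erbb2, the HER2 gene, had 44.8 to 73.7 CPM in benign tissue and 1989 to 16634 CPM in tumors. Markers of several other tissues differed widely between the groups. The summed level of 8 adipocyte markers was 8790 to 22232 CPM in benign tissue and 187 to 322 CPM in tumors, and 8 of 8 fibroblast and 10 of 10 endothelial markers were also lower in tumors. Of all genes tested, 34.8% were lower. Macrophage markers were mixed, with 4 of 7 lower, 1 higher and 2 not passing. Skeletal muscle markers summed to 57533, 37067 and 95021 CPM in benign samples 3, 4 and 6, and to 34.8, 43.3 and 398 CPM in benign samples 1, 2 and 5. In bulk tissue, fewer cells of a type and less RNA per cell cannot be told apart, so each value below is a level in the whole sample.

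Most of the 36 listed junction genes were higher in tumors, the list having been chosen with earlier results of these data known. The 36 members together took 2433 to 4040 CPM in benign tissue and 6494 to 8618 CPM in tumors, so the summed level was higher in each tumor than in every benign sample. By edgeR's quasi-likelihood test at an adjusted p under 0.1, 26 of the 36 rose (72.2%), 4 fell (11.1%) and 6 did not pass. Among all 13191 genes tested, 28.2% rose and 34.8% fell. Of 57 junction genes tested outside the list, 31.6% rose and 47.4% fell, so the rise does not hold for junction genes at large. For 21 members every tumor lay above every benign sample, which held for 14.7% of all genes, and for 2 members, Cdh3 and Gja1, every tumor lay below, which held for 21.2%. The median log2 fold change was 1.24 over the members and -0.06 over all genes tested. All 26 rises were called whichever of the 12 samples was left out, a count that was not made over all genes. With the 3 benign samples poor in muscle RNA alone (1, 2 and 5), a choice made after seeing the data, 23 members rose and 5 fell. Of the 13604 genes tested in that fit, 3629 rose and 3906 fell.

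**Figure D1:**
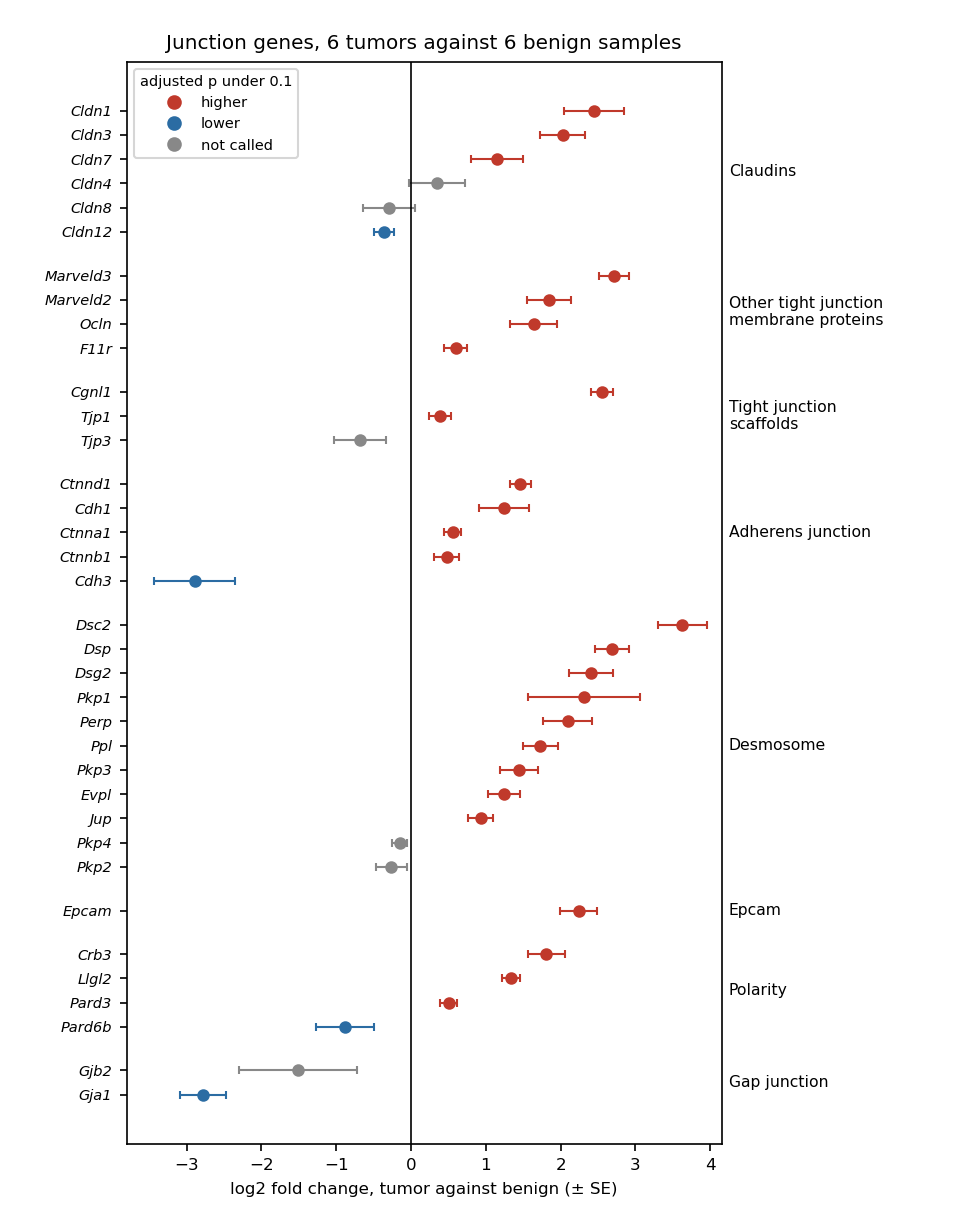
Log2 fold change (tumor against benign, edgeR) of the 36 junction genes, ordered by role, with bars of 1 standard error and colors for genes that rose (red), fell (blue) or did not pass (grey). The desmosome genes and the tight junction proteins other than claudins lie mostly above 1, and Cdh3 (-2.89) and Gja1 (-2.78) lie lowest.

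Claudins, the strand proteins that set which ions pass a tight junction, were divided. Of the 6 measured, Cldn1, Cldn3 and Cldn7 rose, Cldn12 fell, and Cldn4 and Cldn8 did not pass. Cldn1, a barrier-forming claudin, had 7.84 to 37.3 CPM in benign tissue (median 21.3) and 38.9 to 155 CPM in tumors (median 126). The groups did not overlap, although the lowest tumor, tumor 6, lay just above the highest benign sample, and the log2 fold change was 2.44 (SE 0.40, adjusted p = 0.000201). Cldn3, which also tightens the barrier, had 36.4 to 164 CPM in benign tissue (median 95.4) and 344 to 449.8 CPM in tumors (median 435). Its tumors sat close together, well above a wide benign range (log2 fold change 2.03, SE 0.30, adjusted p = 8.16e-05). Cldn7, which binds Epcam, rose by 1.14 on the log2 scale (SE 0.35, adjusted p = 0.0132), with 5 of 6 tumors above every benign sample.

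Cldn12, a claudin that lacks the usual PDZ-binding tail, had 26.6 to 36 CPM in benign tissue (median 30.4) and 18.1 to 30.0 CPM in tumors (median 23.1). The ranges overlapped, with 4 of 6 tumors below all benign samples, and the fall was small (log2 fold change -0.36, SE 0.14, adjusted p = 0.0409). It did not pass without tumor 2, 4, 5 or 6 (adjusted p 0.141, 0.156, 0.108 and 0.171), nor with the muscle-poor benign samples alone (0.418).

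Cldn4, another barrier claudin, had benign values of 20.8 to 62.2 CPM and tumor values of 25.9 to 99.4 CPM, with medians of 45.4 and 45.5 CPM. Tumors 2 and 3 were above every benign sample and the other tumors were not (log2 fold change 0.35, SE 0.37, adjusted p = 0.449). Cldn8 had 8.88 to 31.0 CPM in benign tissue and 9.03 to 33.0 CPM in tumors, nearly the same range (log2 fold change -0.29, SE 0.34). Cldn3 and Cldn4 are neighbours on chromosome 5 of GRCm38, 39.3 kb apart with 0 coding genes between them and on opposite strands. The promoter windows of this pair are shown because one gene rose and the other did not pass. They are the 250 bases before each RefSeq gene start (GRCm38.p6, 5′ to 3′), with the E-box CAGGTG, read on both strands, in capitals.
Cldn3, chr5:134985964-134986213, plus strand: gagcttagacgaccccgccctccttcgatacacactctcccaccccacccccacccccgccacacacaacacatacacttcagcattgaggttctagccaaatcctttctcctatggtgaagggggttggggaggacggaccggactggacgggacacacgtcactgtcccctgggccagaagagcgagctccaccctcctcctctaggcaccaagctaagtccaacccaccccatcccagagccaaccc
Cldn4, chr5:134946935-134947184, minus strand: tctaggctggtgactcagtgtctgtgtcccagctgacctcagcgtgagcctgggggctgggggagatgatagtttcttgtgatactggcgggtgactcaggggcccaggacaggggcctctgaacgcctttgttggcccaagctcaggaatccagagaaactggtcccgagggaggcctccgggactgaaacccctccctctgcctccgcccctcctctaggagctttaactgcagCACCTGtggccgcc
Cldn4 has 1 E-box, read as CACCTG on this strand, with its first base 14 bases before the start, and Cldn3 has none.

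The E-box letters are those read by the repressors Snai1 and Zeb1, known for silencing Cdh1. RefSeq windows were matched for 23 of the 37 listed genes. The others were not searched, so a gene missing from the hits, such as Cdh1, is not thereby shown to lack the motif. The E-box occurred in 11 of them (47.8%: Cldn4, Cldn7, Crb3, Epcam, F11r, Gjb2, Ocln, Pard3, Pard6b, Pkp4 and Tjp3), against 19.4% of 27025 genes with a window and 18.9% of the 10480 that were also tested. It occurred in 6 of 15 members that rose (40.0%) and in 5 of 7 that did not rise (71.4%). Cgn, which has a window but no expression values, is in neither group. AACCNGTT, the letters of the grainyhead-like factors that act on epithelial genes, occurred on either strand in the window of Cgn (1 of 23, 4.35%, against 2.0% of all genes) and in 0 of the 15 members that rose. No member window held both motifs, and a match describes letters in the window and says nothing of binding.

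All 4 of the other tight junction membrane proteins rose. Marveld3, a tetraspan protein related to occludin, had 8.88 to 22.4 CPM in benign tissue (median 15) and 90.6 to 106 CPM in tumors (median 98.0). The tumors were tightly grouped and far above the benign samples, with a ratio of means of 6.60 (log2 fold change 2.71, SE 0.20, adjusted p = 1.74e-07). Marveld2, or tricellulin, which seals the corners between cells, rose from a median of 15.5 to 55.3 CPM, and Ocln, occludin itself, from 15 to 45.9 CPM, with no overlap for either (log2 fold changes 1.85, SE 0.29, and 1.64, SE 0.31). Marveld2 and Ocln lie 43.2 kb apart on chromosome 13 with 0 coding genes between them. F11r, the junctional adhesion molecule JAM-A, changed least of the 4, from 103 to 159.8 CPM in benign tissue (median 124) to 151 to 238 CPM in tumors (median 209). Its 2 lowest tumors, 1 and 5, lay within the benign range (log2 fold change 0.60, SE 0.15, adjusted p = 0.00453).

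The scaffold proteins under the tight junction were divided, with 2 of the 3 measured higher. Cgnl1, paracingulin, which links junctions to the cytoskeleton, had 117 to 203 CPM in benign tissue (median 148) and 809 to 990.0 CPM in tumors (median 908). The groups were far apart and narrow, with a ratio of means of 5.86 (log2 fold change 2.55, SE 0.15, adjusted p = 2.82e-08, the smallest among the members). Its promoter window, shown for that reason, holds neither motif.
Cgnl1, chr9:71771603-71771852, minus strand: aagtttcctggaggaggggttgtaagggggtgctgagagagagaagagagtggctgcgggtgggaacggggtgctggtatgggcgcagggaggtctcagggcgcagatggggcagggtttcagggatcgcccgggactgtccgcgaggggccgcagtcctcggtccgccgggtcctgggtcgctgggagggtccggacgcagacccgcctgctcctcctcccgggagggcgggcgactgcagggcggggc
Tjp1, or ZO-1, the central scaffold that ties claudins to actin, rose by 0.39 on the log2 scale (SE 0.14, adjusted p = 0.0328), with 4 of 6 tumors above the benign range, and did not pass against the muscle-poor benign samples (0.154). Tjp3, or ZO-3, had 71.7, 135, 119, 54.9, 140.1 and 21.7 CPM in benign samples 1 to 6 and 51.4 to 63.6 CPM in tumors (median 54.7). The tumors lay inside the benign spread, between benign 6 below and the higher benign samples above (log2 fold change -0.68, SE 0.35, adjusted p = 0.109). Tjp3 passed as lower without benign 6 (adjusted p = 0.00515) or benign 4 (0.0776) and with the muscle-poor benign samples alone (-1.0, adjusted p = 0.00237).

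Of the 5 adherens junction genes, 4 rose and 1 fell. Cdh1, E-cadherin, the cadherin of luminal cells, had 63.9 to 274 CPM in benign tissue (median 189) and 293 to 530.3 CPM in tumors (median 429.6), without overlap (log2 fold change 1.24, SE 0.33, adjusted p = 0.00661). Ctnnd1, the delta-catenin that stabilizes cadherins at the membrane, changed most of the catenins, from 163 to 240.5 CPM (median 201) to 414 to 685 CPM (median 562). Every tumor was above every benign sample (log2 fold change 1.46, SE 0.15, adjusted p = 2.69e-06). Ctnna1, alpha-catenin, the link to actin, rose by 0.56 (SE 0.11, adjusted p = 0.00111) without overlap, and Ctnnb1, beta-catenin, which also carries Wnt signals, by 0.47 (SE 0.17, adjusted p = 0.0294) with 4 of 6 tumors above the benign range. Ctnnb1 did not pass with the muscle-poor benign samples alone (adjusted p = 0.108).

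Cdh3, P-cadherin, the cadherin of myoepithelial cells, had 17.2, 28.8, 19.8, 12.5, 18.6 and 5.86 CPM in benign samples 1 to 6. The tumors had 0.623, 2.89, 3.73, 3.91, 0.256 and 2.30 CPM. Every tumor was below the lowest benign sample, and tumors 1 and 5 were near the level of 3 counts (log2 fold change -2.89, SE 0.54, adjusted p = 0.000555). Cdh1 and Cdh3 are neighbours on chromosome 8, 46.1 kb apart with 1 coding gene between them, and moved in opposite directions. All 9 of 9 basal and myoepithelial markers, among them Krt5, Krt14 and Trp63, were lower in tumors as well, with a sum of 888 to 1935 CPM in benign tissue and 61.3 to 159 CPM in tumors and none at 0 counts in every tumor. Their part in the fall of Cdh3 was not tested.

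Of the 11 desmosome genes 9 rose and 2 did not pass, with a median log2 fold change of 1.73. Dsc2, a desmosomal cadherin, had 3.02 to 13.2 CPM in benign tissue (median 11.2) and 95.9 to 146 CPM in tumors (median 113). The lowest tumor was far above the highest benign sample, and the ratio of means was 12.5 (log2 fold change 3.63, SE 0.32, adjusted p = 9.77e-07), the highest of all members. Its partner Dsg2 went from a median of 58.0 to 242 CPM (log2 fold change 2.40, SE 0.29, adjusted p = 1.64e-05). Dsp, desmoplakin, which anchors keratin filaments to the plaque, had 28.0 to 51.0 CPM in benign tissue and 173 to 354 CPM in tumors (log2 fold change 2.68, SE 0.23, adjusted p = 5.7e-07). In both genes the groups were separate.

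The rest of the plaque was mixed. Jup, plakoglobin, which serves both adherens junctions and desmosomes, rose by 0.93 (SE 0.17), and the cytolinkers Ppl and Evpl, periplakin and envoplakin, rose by 1.73 (SE 0.23) and 1.25 (SE 0.21), each with no overlap. Perp, a tetraspan protein needed for desmosome assembly, rose by 2.09 (SE 0.33, adjusted p = 0.000126), with tumor 5 highest at 292 CPM against a tumor median of 135. The plakophilins, armadillo proteins that cluster desmosomal cadherins, were divided. Pkp3 rose by 1.44 (SE 0.25) with no overlap, Pkp4 did not pass at -0.15 (SE 0.10), and Pkp2 did not pass at -0.26 (SE 0.21, adjusted p = 0.307), with 34.5 to 76.5 CPM in benign tissue (median 54.8) and 32.3 to 67.8 CPM in tumors (median 45.5).

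Pkp1 varied most among the tumors. It had 8.52 to 25.9 CPM in benign tissue (median 15), and 12.5, 134, 223, 44.3, 3.71 and 38.7 CPM in tumors 1 to 6. Tumors 2 to 4 and 6 were above every benign sample, tumor 1 was among them, and tumor 5 was below all of them, a range of 60.1-fold between tumors (log2 fold change 2.31, SE 0.75, adjusted p = 0.0189). Without tumor 3 the log2 fold change was 1.67, and with the muscle-poor benign samples alone Pkp1 did not pass (adjusted p = 0.149).

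Epcam, an adhesion molecule of epithelial cells that stabilizes claudins, had 132 to 399 CPM in benign tissue (median 255) and 964 to 1351 CPM in tumors (median 1236). No benign sample came near the tumors, and the log2 fold change was 2.24 (SE 0.24, adjusted p = 5.71e-06). Among the polarity genes, which place the junctions between the apical and the basal membrane, 3 of 4 rose. Crb3, the apical Crumbs protein of epithelia, had 2.84 to 9.79 CPM in benign tissue (median 6.62) and 22.0 to 25.2 CPM in tumors (median 23.7). The tumors of Crb3 were nearly equal, within 1.15-fold of each other (log2 fold change 1.81, SE 0.24, adjusted p = 3.89e-05). Llgl2, of the basolateral Scribble group, rose by 1.34 (SE 0.12, adjusted p = 1.16e-06) and Pard3, which recruits the Par complex to junctions, by 0.50 (SE 0.11, adjusted p = 0.00173), both with no overlap.

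Pard6b, the Par complex adaptor that binds Pard3 and atypical protein kinase C, went the other way. It had 12, 24.7, 25.9, 12.3, 28.2 and 4.44 CPM in benign samples 1 to 6 and 6.07 to 14.2 CPM in tumors (median 9.41). Benign 2, 3 and 5 were above all tumors, benign 6 was below them, and the other two lay among them (log2 fold change -0.88, SE 0.39, adjusted p = 0.0725). The call was lost without benign 2, 3 or 5 (adjusted p 0.17, 0.145 and 0.158) and without tumor 1, 2, 4 or 5 (0.166, 0.13, 0.143 and 0.158).

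The gap junction pair was lower in level in tumors, and 1 of the 2 passed. Gja1, the connexin of myoepithelial and stromal cells, had 85.8, 92.4, 99.99, 205, 103 and 116 CPM in benign samples 1 to 6, and 10.9, 21.9, 24.3, 15.3, 22.1 and 7.79 CPM in the tumors. All tumors were far below all benign samples, and the ratio of benign to tumor means was 6.86 (log2 fold change -2.78, SE 0.31, adjusted p = 6.87e-06). Benign 4, the highest, also had the highest brown fat marker sum (2874 CPM, against 40.2 to 840 CPM in the other benign samples) and the highest adipocyte sum (22232 CPM). Its fibroblast sum (5061 CPM) was the lowest among benign samples, and its basal marker sum was 1012 CPM, in a benign range of 888 to 1935 CPM. The 9 basal markers, 8 fibroblast markers and 10 endothelial markers that fell with Gja1 were given above, with fibroblast sums of 5061 to 13020 CPM in benign tissue and 506 to 1189 CPM in tumors and endothelial sums of 729 to 1430 and 102 to 125 CPM, and their part was not tested. The promoter window of Gja1, shown as that of a member that fell, holds neither motif.
Gja1, chr10:56377050-56377299, plus strand: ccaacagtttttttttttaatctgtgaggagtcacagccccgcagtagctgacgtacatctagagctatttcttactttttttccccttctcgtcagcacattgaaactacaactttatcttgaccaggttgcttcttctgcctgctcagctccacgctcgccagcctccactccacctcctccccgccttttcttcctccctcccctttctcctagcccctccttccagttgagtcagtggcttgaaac

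Gjb2, a connexin of luminal cells, was the least even gene in benign tissue. Its benign values were 87.4, 182, 236, 14.1, 182 and 4.97 CPM, and its tumor values were 61.8, 17.5, 12, 85.3, 16.2 and 56.3 CPM. Benign 4 and 6 were far below the other benign samples, so the groups overlapped (log2 fold change -1.51, SE 0.79, adjusted p = 0.12). Gjb2 passed as lower without benign 4 (adjusted p = 0.0666), benign 6 (0.0397) or tumor 4 (0.0949) and with the muscle-poor benign samples alone (-1.82, adjusted p = 0.029).

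**Figure D2:**
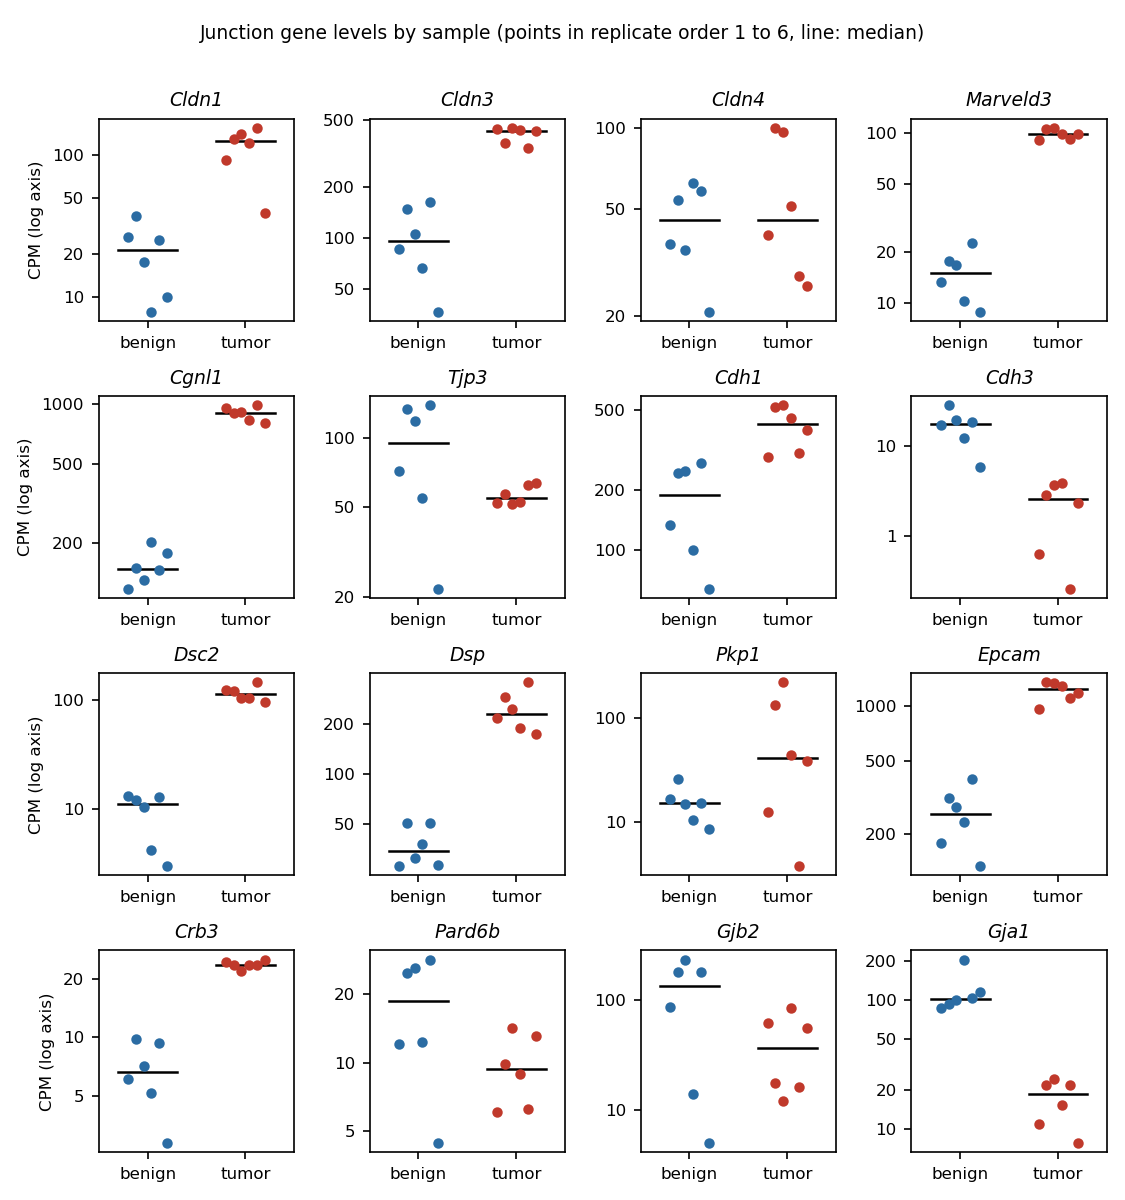
CPM on log axes in the 6 benign samples (blue) and 6 tumors (red) for 16 junction genes, points in replicate order and lines at the medians. The Marveld3, Cgnl1, Dsc2, Epcam and Crb3 groups are far apart, Cdh3 and Gja1 are separated in the opposite direction, and Cldn4, Pkp1 and Gjb2 overlap.

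Junction gene levels spread more in benign tissue than in tumors for most members, given here as a description. The SD of log2 CPM was wider in benign tissue for 24 members and wider in tumors for 12, with medians of 0.56 and 0.28. The same count was not made over all genes, so the wider benign spread is not shown to be particular to junction genes. Benign 6 had the lowest level among benign samples for 21 of the 36 members, and benign 5 the highest for 15. Benign 6 also had the highest muscle marker sum, an adipocyte sum of 18063 CPM and a keratin sum of 692 CPM (Krt7, Krt8, Krt18 and Krt19), against keratin sums of 680 to 1563 CPM over the benign samples. The part of tissue makeup in this spread was not tested. Pkp1, Cldn4 and Cdh3 were among the genes more spread in tumors, with tumor 3 highest for 13 members and tumor 1 lowest for 12.

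Per kb of the longest coding transcript (GENCODE M21), the order of members shifted. In benign tissue the highest levels were those of Ctnnb1 (130.3 ± 22.5 CPM per kb, mean ± SD, n = 6) and Epcam (125 ± 47.0), which did not differ beyond their spread, then Jup (95.7 ± 20.1), Ctnna1 (85.8 ± 5.85) and Cldn3 (80.2 ± 38.5). In tumors Epcam stood highest at 591 ± 74.6 CPM per kb, then Cldn3 at 328 ± 35.9, and then Jup (182 ± 33.0) and Ctnnb1 (181 ± 39.0), which lay within each other's spread. Cgnl1 moved from rank 15 (22.8 ± 4.66) to rank 5 (134 ± 10.3). Among the claudins, Cldn3 was the highest per kb in both groups and Cldn7 the next (34.6 ± 19.5 in benign tissue, 76.7 ± 14.3 in tumors), while Cldn1 went from the lowest of the 6 in benign tissue (6.36 ± 3.41) to the third in tumors (34.8 ± 12.9), beside Cldn4 (31.2 ± 18.2). The lowest member in tumors was Cdh3 at 0.522 ± 0.353 CPM per kb.

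Many junction genes are made by epithelial cells, as keratins are, so each member was also set against the keratins of simple epithelia in the same sample. For a member that other cells of the tissue also make, such as Cdh3 or Gja1, this ratio is not a level per luminal cell. Which other members are also made outside the epithelium was not tested, so no ratio below is a level per epithelial cell. Krt8 and Krt18, the keratin pair of all luminal cells, rose in tumors (log2 fold changes 1.10 and 1.44), Krt19 fell by 4.74 and Krt7 did not pass (-0.84, adjusted p = 0.357), so the denominator is itself uneven. Relative to the sum of these 4 keratins, 18 members rose and 8 fell, against 7.47% and 40.8% of all genes, with a median log2 difference of 0.78 over the members and -0.62 over all genes. For 9 members (Cldn3, Marveld3, Cgnl1, Dsp, Dsg2, Dsc2, Perp, Epcam and Crb3) every tumor lay above every benign sample, which held for 2.73% of all genes. Dsc2 had 9.87 counts per 1000 keratin counts in benign tissue and 84.1 in tumors (log2 difference 3.10, SE 0.42, adjusted p = 4.24e-07). Cgnl1 had 162 and 661 (2.03, SE 0.39), and Epcam 252 and 869 (1.78, SE 0.38).

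Other rises did not pass on this scale. Cdh1 (0.75, SE 0.39, adjusted p = 0.125), Cldn7 (0.67, SE 0.38), Jup (0.38, SE 0.36), F11r, Tjp1, Ctnna1, Ctnnb1 and Pard3 did not pass relative to keratins, and the last 5 lay between -0.20 and 0.08. Their standard errors were 0.34 to 0.36, so changes of that size were not detectable. Pkp2, Pkp4, Tjp3 and Gjb2 were lower relative to keratins (log2 differences -0.86, -0.72, -1.13 and -1.86), as were Cldn12, Cdh3, Pard6b and Gja1. Of the calls, 14 of 18 rises and 5 of 8 falls held whichever sample was left out, the exceptions being Ctnnd1, Pkp1, Evpl and Llgl2, and Cldn12, Pkp2 and Pkp4. No such count was made over all genes. Ctnnd1 (adjusted p = 0.106) and Pkp1 (0.162) did not pass without tumor 3, and Pkp2 (0.137) did not pass without benign 6. Evpl was lost on leaving out 10 of the 12 samples in turn, every one but benign 3 and tumor 5 (0.107 to 0.21), Llgl2 on leaving out benign 2 or 4 or tumor 1, 3 or 6 (0.101 to 0.127), Pkp4 on leaving out benign 1, 2, 3 or 6 or tumor 2, 3, 4 or 5 (0.113 to 0.185), and Cldn12 on leaving out benign 3 or 6 or tumor 2, 4 or 5 (0.115 to 0.162). In the other direction, Cldn7 and Cdh1 passed as higher without benign 3 (0.0452 and 0.0617) or tumor 5 (0.0761 and 0.0473), and Cldn8 passed as lower without tumor 1 (0.0149). With the muscle-poor benign samples alone, 12 members rose and 5 fell, and of all 13604 genes tested 837 rose and 3616 fell.

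The choice of keratins moved these counts. Against Krt8 and Krt18 alone, 11 members rose and 14 fell, where 4.43% and 77.6% of all genes did, and the medians were 0.11 over the members and -1.31 over all genes. Tjp1, Ctnna1, Ctnnb1 and Pard3, which rose by library size, fell on this scale. Their log2 differences were -0.88, -0.70, -0.83 and -0.75 (edgeR, adjusted p = 0.0246, 0.0798, 0.0415 and 0.0485). Under library size and both keratin sums, 11 members rose under all 3 denominators (Cldn1, Cldn3, Marveld2, Marveld3, Cgnl1, Dsp, Dsg2, Dsc2, Pkp1, Perp and Epcam) and 4 fell under all 3 (Cldn12, Cdh3, Pard6b and Gja1). Each keratin sum moved every member down, so the 3 are not separate checks. The 11 are those that rose against Krt8 and Krt18, and the 4 are those that fell by library size. How many of all genes did so under all 3 was not counted. Marveld2 and Pkp1 were near the threshold against Krt8 and Krt18 (edgeR, adjusted p = 0.0912 and 0.0842). By library size, the falls of Cldn12 and Pard6b were lost on leaving out single samples, as given above. A ratio to keratins shows unequal change and does not say which side moved.

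**Figure D3:**
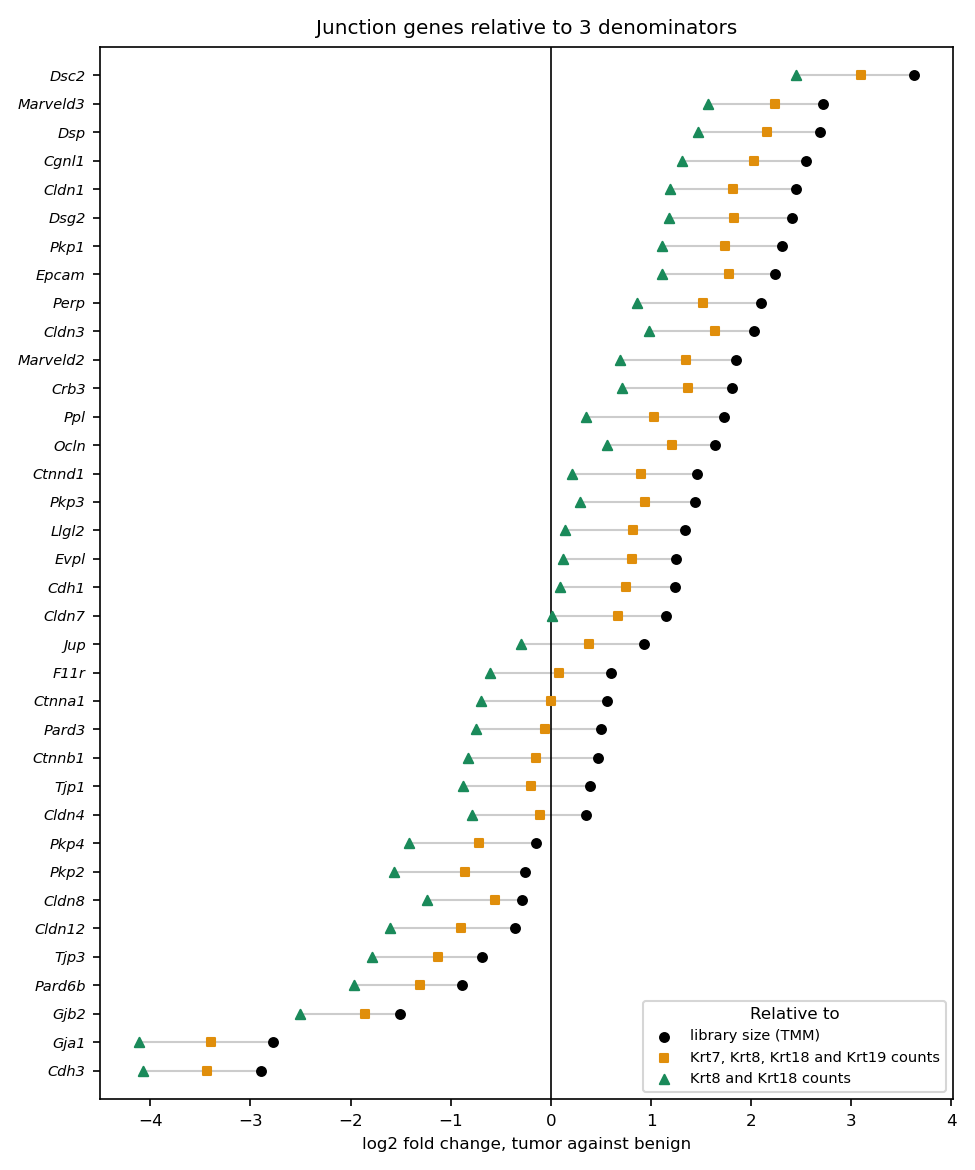
Log2 fold change (tumor against benign, x axis) of each junction gene with 3 denominators, library size (circles), the summed counts of Krt7, Krt8, Krt18 and Krt19 (squares) and those of Krt8 and Krt18 (triangles). Every gene shifts left from circle to triangle, Dsc2 is highest on each (3.63, 3.10 and 2.45), and Cdh3 and Gja1 are lowest on each.

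Pairs of genes from the same structure were compared inside each sample, which removes library size from the comparison. Exact two-sided permutation tests over all regroupings of 6 samples against 6 were used for 5 pairs, with a smallest possible p of 0.00216 and adjustment over the 5. The log2 ratio of Cdh3 to Cdh1 was -3.31 ± 0.38 in benign tissue (mean ± SD, n = 6) and -7.66 ± 0.91 in tumors, a difference of -4.36 (exact permutation p = 0.00216, adjusted 0.0036), and every tumor lay below every benign sample. Since every tumor was above all benign samples in Cdh1 and below them in Cdh3, this separation and its p were fixed by those results. The ratio therefore adds its size and no further test. The ratio of Dsc2 to Dsg2 went from -2.35 ± 0.20 to -1.11 ± 0.09 (difference 1.24, exact permutation p = 0.00216, adjusted 0.0036), and that of Jup to Ctnnb1 from -0.63 ± 0.13 to -0.16 ± 0.19 (difference 0.47, the same p), both without overlap.

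The other pairs did not pass. The log2 ratio of Tjp3 to Tjp1 was -0.75 ± 0.99 in benign tissue and -1.55 ± 0.38 in tumors (difference -0.80, exact permutation p = 0.0974, adjusted 0.122), with benign 6 the lowest of all samples at -2.56. Without benign 6 the difference was -1.16 (exact permutation, adjusted p = 0.0081). The log2 ratio of Gja1 to Gjb2 was 3.84 and 4.46 in benign 4 and 6 and -1.24 to -0.03 in the other benign samples, and -2.81 to 1.0 in tumors (difference -1.87, exact permutation p = 0.19).

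**Figure D4:**
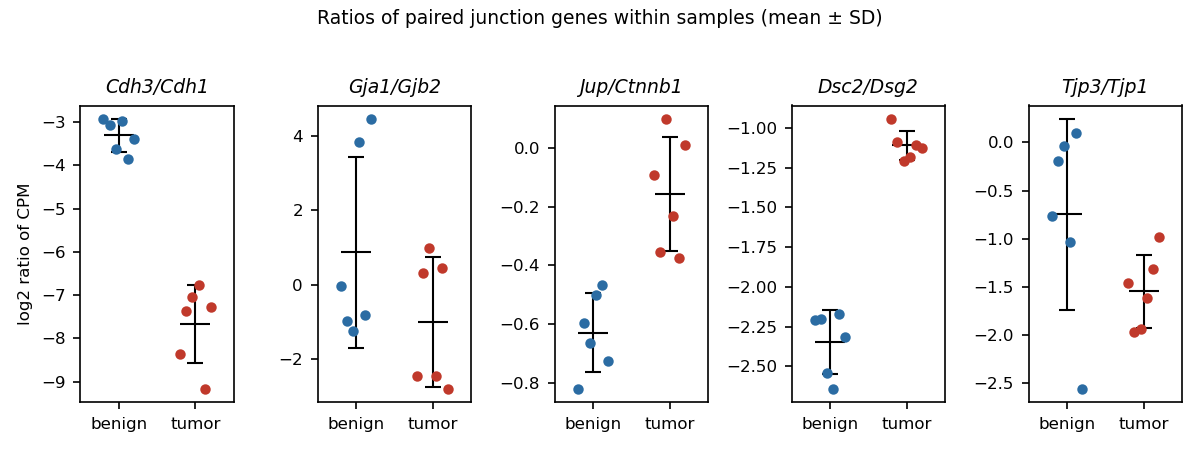
Log2 ratio of 2 junction genes within each sample for 5 pairs, with 6 benign samples (blue) and 6 tumors (red) each and bars at the mean ± SD. The Cdh3 to Cdh1, Jup to Ctnnb1 and Dsc2 to Dsg2 ratios separate the groups, and the Tjp3 to Tjp1 and Gja1 to Gjb2 ratios overlap, with benign 4 and 6 apart in the last.

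Genes of the same structures outside the list were divided. Of 82 further junction genes, 78 were in the table and 57 were tested, and 18 rose (31.6%) while 27 fell (47.4%), beside 28.2% and 34.8% of all genes, with a median log2 fold change of -0.35. By structure, 7 of 22 tight junction genes rose and 11 fell, 4 and 6 of 16 adherens junction genes did, 6 and 3 of 11 polarity genes, and 1 and 6 of 7 gap junction genes. The largest rises were those of other claudins and a connexin. Cldn2, a pore-forming claudin that lets cations through, had 0.264 to 1.11 CPM in benign tissue and 12.3 to 529 CPM in tumors (median 249), with tumor 5 far below the others (log2 fold change 8.43, SE 0.82, adjusted p = 2.21e-06). Its benign level rested on 29 counts in all, at most 9 in a library, so the size of this rise is loosely set. Cldn10 rose by 4.30 (SE 0.51), from 3.96 to 12.1 CPM to 41.9 to 283 CPM, and tumor 5 was its highest sample. Gjb1 rose by 5.19 (SE 1.11, adjusted p = 0.00148), but at 132.6 CPM tumor 5 stood apart from the other tumors (1.43 to 14.6 CPM), and without it the log2 fold change was 3.26.

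Falls among these genes included markers of other cell types. Cldn5 and Cdh5, of endothelial junctions, fell by 4.71 (SE 0.36) and 3.39 (SE 0.17), beside the 10 endothelial markers, of which these are 2. Des, desmin, a muscle filament protein of desmosome-like junctions, had 1315, 973 and 2413 CPM in the muscle-rich benign samples 3, 4 and 6 and 23.3 to 52.8 CPM in the other benign samples, while tumors held 1.62 to 10.7 CPM. The log2 difference of -7.67 became -3.11 with the muscle-poor benign samples alone. Cldn15 fell by 4.69 (SE 0.37), and Cdh2, N-cadherin, fell from 11.2 to 28.1 CPM to 2.05 to 8.72 CPM (log2 fold change -2.02, SE 0.39, adjusted p = 0.000684). Dsg3, a desmoglein of stratified epithelia chosen after its values were seen, had 0 counts in every benign sample and 1.87, 4.81, 6.86, 6.48, 24.0 and 0.439 CPM in tumors 1 to 6, a mean at least 16.2-fold higher than the level of 3 counts per benign library, or at least 8.92-fold without tumor 5. It was below the filter on low counts and was not tested.

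**Figure D5:**
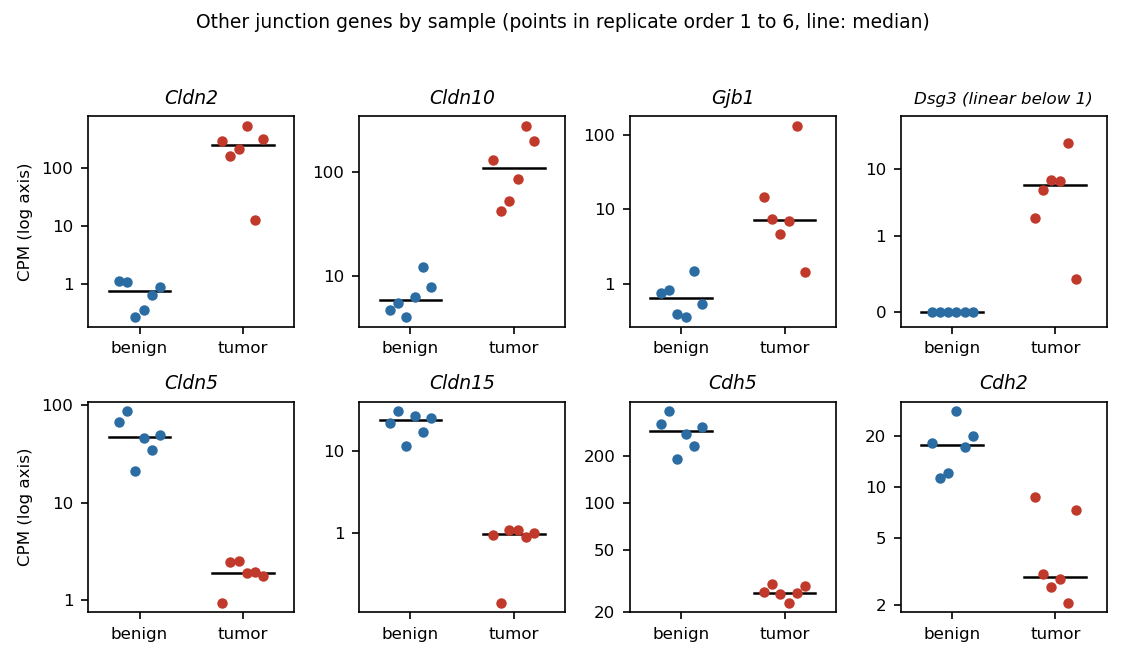
CPM in the 6 benign samples and 6 tumors for junction genes outside the list, on log axes (for Dsg3 linear below 1 CPM), with points in replicate order and lines at the medians. Cldn2, Cldn10 and Dsg3 lie higher in each tumor than in every benign sample, Gjb1 overlaps, and Cldn5, Cldn15, Cdh5 and Cdh2 lie lower.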

How the data were processed

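RNA from 6 mammary tumors and 6 benign mammary tissue samples was analysed, grouped by the labels. The labels do not say that every sample came from a separate mouse, so p-values measure the spread between these samples. Per the paper and the submitters' processing notes, the authors enriched poly A RNA, made directional libraries, sequenced paired reads, trimmed them with Trim Galore, quantified transcripts with Salmon against mm10, and used DESeq2. Versions and annotation are not given in the sources used here. The authors deposited counts per gene symbol as whole numbers, not scaled for library size, for 16411 genes with at least 5 counts each over the 12 samples.

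From the deposited counts, genes were kept by filterByExpr (at least 10 counts in enough samples of a group, 15 over all), given TMM factors, and entered into the two-sided quasi-likelihood test of edgeR 4.0.16 (R 4.3.3), with Benjamini-Hochberg adjustment over all 13191 genes tested and a threshold of 0.1. The common biological coefficient of variation was 0.351. Levels are given as CPM, and 2 counts were added before taking log2. For values relative to keratins, the library size was replaced by the summed counts of Krt7, Krt8, Krt18 and Krt19. Ratios within samples were compared by exact permutation with a threshold of 0.05. Replicates of a group differed by more than sampling noise (smallest chi-square per degree of freedom 13.0 in benign tissue, 17.2 in tumors). The scripts were tested on simulated data.

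Members and marker lists were chosen with earlier results of these data known. The members with the highest and lowest log2 fold change of each role and those that fell are given by lowest, median and highest value, or sample by sample where single samples stood apart, and a few more were described so after their values were seen. Outside the list, the 3 highest and 3 lowest called genes with at least 5 CPM in the higher group were named, with Cdh2, Cdh5 and Cldn5. A ratio of Cgnl1 to Cgn had been planned and was not computed. Coordinates, gene order and transcript lengths came from GENCODE M21 on GRCm38, the assembly called mm10, and promoter windows from RefSeq on GRCm38.p6. The alternatives were DESeq2 1.42.0, upper-quartile scaling, total counts, 2 other filters, a threshold of 0.05, other keratins, another added count, a block for replicate number, omission of each sample in turn and, chosen after seeing the data, the benign samples poor in muscle RNA.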

Additional observations from a re-analysis of the deposited data

Results flagged for a closer look

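Within groups of 6, the gap of the highest or lowest sample to the next, divided by the range of log2 CPM, was above Dixon's 95% critical value in 4 of the 98 groups examined, where chance gives about 1 in 20. For Gja1, benign 4 had a log2 CPM of 7.68 (205 CPM), and the next benign sample had 116 CPM. For Cldn2, tumor 5 had a log2 CPM of 3.65 (12.3 CPM), and the next tumor had 161 CPM. For Des, tumor 5 had a log2 CPM of 3.46 (10.7 CPM), the next tumor had 3.37 CPM, and tumor 5 also had the highest skeletal muscle marker sum among tumors (157 CPM, against 1.2 to 9.58 CPM in the other tumors). For Cldn15, tumor 2 had a log2 CPM of -1.27 (0.138 CPM, a single-read level below the 3 counts used as a floor), and the next tumor had 0.895 CPM.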

How the results depend on the processing

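The count of members that rose was 26 under DESeq2, upper-quartile scaling, total counts, both other filters and a threshold of 0.05, and 26 with each sample left out. The count that fell was 4, and 4 with upper-quartile scaling, 5 with DESeq2, 3 with a threshold of 0.05, 3 with the filter of 10 counts per library, 2 with total counts, 2 with a filter of 1 count in total, and 2 to 6 with samples left out. Of the 11227 to 16411 genes tested in these fits, 3271 to 4571 rose and 3247 to 5483 fell. Other junction genes that fell were 27, or 17 under the filter of 10 counts per library, which tests fewer genes. Relative to keratins, 18 members rose (14 to 20 with samples left out) and 8 fell (5 to 9, with 5 without benign 6 and 5 with the muscle-poor benign samples alone). With 6 keratins 20 members rose and 5 fell, and with Krt8 and Krt18 alone 11 rose and 14 fell. Of all 13191 genes, 1234 rose and 4166 fell with 6 keratins, and 585 and 10230 did with Krt8 and Krt18 alone.

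Signs relative to keratins turned for members near 0 that did not pass. With 6 keratins the values were Cldn4 0.12, Tjp1 0.042, Ctnna1 0.23, Ctnnb1 0.10 and Pard3 0.19, and with Krt8 and Krt18 they were F11r -0.61 and Jup -0.30. With samples left out, Cldn4 ranged from -0.34 to 0.084, F11r from -0.026 to 0.24, Ctnna1 from -0.10 to 0.12 and Pard3 from -0.20 to 0.068. With the muscle-poor benign samples, Ctnna1 was 0.11 and Pard3 0.14.

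The labels number both groups alike, but the mice differ, the same-number correlations ran from -0.12 to 0.10, and no sample correlated best with its own number, so the numbers do not pair the samples. With the replicate number as a block, 25 members rose and 3 fell, and 20 and 8 did so relative to keratins. Of all 13191 genes, 3473 rose and 4237 fell with the block, and 1349 and 7767 did so relative to keratins. Paired by number, the exact sign-flip test over 6 pairs cannot go below 0.03125, and Cdh3 to Cdh1 (-4.36), Jup to Ctnnb1 (0.47) and Dsc2 to Dsg2 (1.24) had an adjusted p of 0.0521. The Tjp3 to Tjp1 ratio passed without benign 6 (-1.16) and with the muscle-poor benign samples (-1.26, exact permutation, adjusted p = 0.0198), its range being -1.16 to -0.63 with samples left out. The cause was not tested. Depth limits Cdh3 in tumors, where the lowest library was under 3 counts.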
